A study of Homo sapiens with 8 samples.

Results

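A list of 47 human genes for DNA replication and nucleotide synthesis was followed in A549 cells, an established lung adenocarcinoma line, across 24 h of exposure to the synthetic glucocorticoid dexamethasone. The list holds the subunits of the replicative helicase, origin loading factors, subunits of the replicative polymerases, the sliding clamp and small subunits of its loader. It also holds lagging-strand and single-strand binding proteins, fork protection and chromatin assembly factors, 5 enzymes of nucleotide supply and the E-type cyclins. Of the origin recognition complex, the polymerases, the clamp loader and RNase H2 only some subunits are listed. Other subunits of these are treated separately below. Members were the probes annotated with a listed symbol: 55 probes for 45 genes, out of 22011 probes in all. CDT1 and ORC6 had no annotated probe and were not analysed here. Of the 55 probes, 53 were detected on at least 4 of the 8 arrays, and the brightest of these for each gene gave 44 genes for testing among 10964 tested genes. CCNE2 was left out of the test because its probe was detected on 0 of 8 arrays.

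All 8 arrays carried RNA of A549 cells with the hairpin shGLP, named for GLP, the histone methyltransferase encoded by EHMT1. The 24 h group was 4 samples exposed to 100 nM dexamethasone for 24 h. The 0 h group was 4 samples labelled with the same agent at 0 h, and its labels name no vehicle. All cells were kept beforehand in phenol red-free medium with charcoal-stripped serum, which is depleted of steroids. The design also names cells labelled NI and shNS, which were not analysed here. No 24 h culture without the hormone was analysed, so dexamethasone and a further 24 h in culture cannot be told apart, and nothing here compares cells with and without the hairpin. The labels do not say whether replicates were separate cultures or passages, so p-values set each difference against the spread between these samples only.

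Each array detected between 13897 and 14797 probes. Replicates 1 and 2 of both groups were on one slide and replicates 3 and 4 on the other. Values below are log2 signals after background correction and quantile normalization. Levels of different probes cannot be set against each other, so each test compared a gene only with itself. Where different genes are set beside each other below, it is as a description. EHMT1, the hairpin's target, had a mean of 5.75 at 24 h and 5.39 at 0 h, and its difference of 0.36 ± 0.13 missed the threshold (adjusted p = 0.130). Its probe passed detection in all 4 samples at 24 h but in 1 sample at 0 h. TSC22D3, a direct glucocorticoid target, was higher at 24 h by 3.18 ± 0.25. Of 10 listed A549 markers 9 were detected on all 8 arrays and TFF1 on some. Of 6 fibroblast markers COL1A1 and THY1 were detected on all 8, DCN and LUM on some and COL3A1 and PDGFRB on 0. DCN was higher at 24 h by 2.00 ± 0.27 (adjusted p = 0.00119) and COL1A1 was lower, at -1.22 ± 0.32 (adjusted p = 0.0385). Of 4 leukocyte markers with a probe CD14 and CD68 were detected on all 8 and PTPRC and CD3D on 0, and of 5 endothelial markers PECAM1 was detected on all 8, KDR on some and VWF, CDH5 and TEK on 0. The summed signal of the fibroblast markers, on a linear scale, lay between 405 and 608 at 24 h and between 327 and 791 at 0 h, that of the leukocyte markers between 346 and 586 at 24 h and between 548 and 693 at 0 h, and that of the endothelial markers between 225 and 296 at 24 h and between 255 and 280.4 at 0 h. Their part in the results below was not tested.

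Replication of a chromosome begins when the origin recognition complex, CDC6 and CDT1 load the MCM2 to MCM7 ring onto DNA in G1 phase. At the start of S phase, CDC45 and the GINS complex join the ring and turn it into an active helicase, behind which polymerases epsilon and delta copy the strands while PCNA holds them in place. Ribonucleotide reductase, thymidylate synthase and thymidine kinase supply the deoxynucleotides. Many of these genes are transcribed by E2F factors as cells pass from G1 into S phase, and glucocorticoids are known to slow the growth of A549 cultures.

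After 24 h, 41 of the 44 tested genes were lower and 0 were higher (limma, adjusted p under 0.05 over all tested probes), against 5.34% of all tested genes lower and 4.72% higher. The list was drawn up with earlier results of these data known, so its contrast with all tested genes is a description. All 44 estimates were below 0, against 51.2% of all tested genes. At an unadjusted p under 0.05, 42 of the 44 were lower and 0 higher, against 11.9% of all tested genes lower and 11% higher. The median log2 difference was -1.16, or 44.7% of the 0 h signal, and the genes ranged between -2.07 for MCM10 and -0.28 for GINS1. The median over all tested genes was -0.01. Of the 44 genes, 30 had a log2 difference of -1 or below, a size that 2.47% of all tested genes reached. In 40 of the 44, each 24 h array lay below each 0 h array, a pattern found in 9.1% of all tested genes. The genes that did not pass the test were GINS1, PCNA and CLSPN. A drop in signal per gene and a drop in the share of cells that transcribe it cannot be told apart in RNA of whole cultures.

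**Figure D1:**
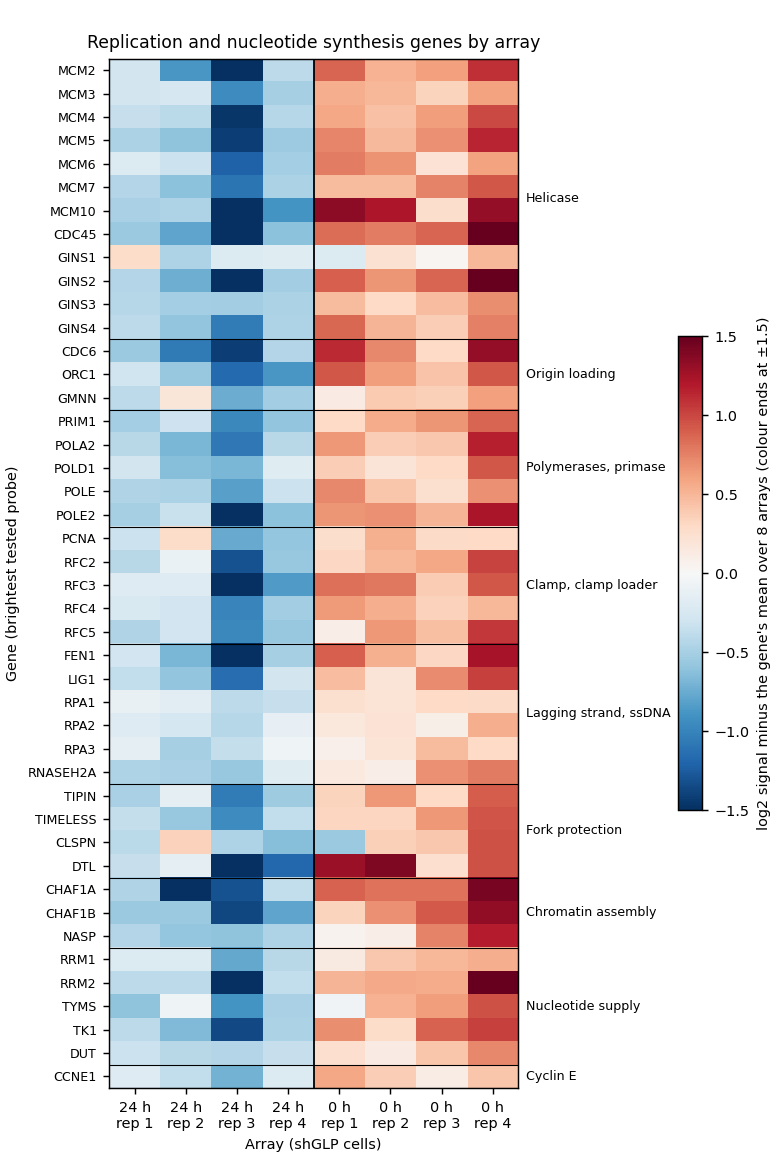
Colour shows the log2 signal of each tested gene minus that gene's mean over the 8 arrays, with the scale ending at -1.5 and 1.5. Rows are the 44 genes in order of role, and columns are the 4 arrays at 24 h followed by the 4 at 0 h. The 24 h columns are blue for nearly every gene, most strongly in replicate 3, and the 0 h columns red.

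**Figure D2:**
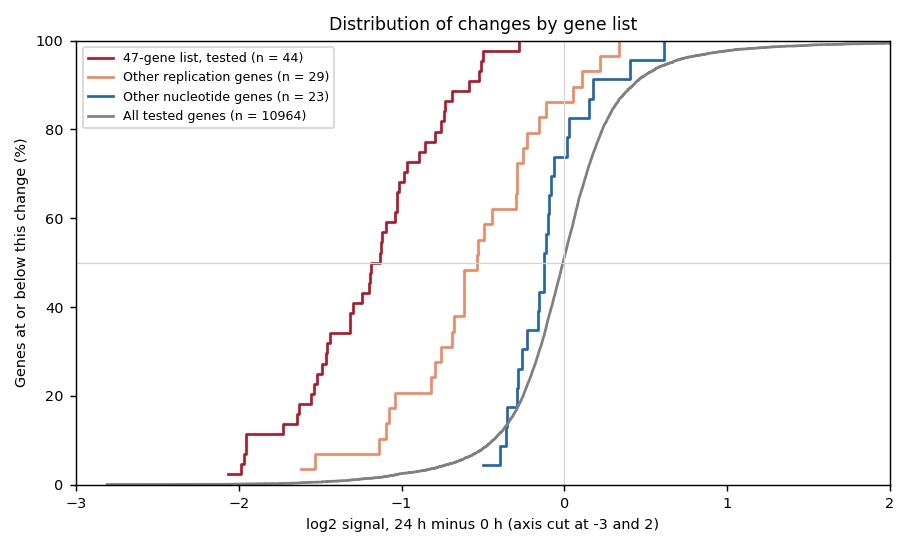
Each line gives the percent of genes in a list whose log2 difference (24 h minus 0 h) is at or below the value on the horizontal axis. The line of the 44 genes crosses the middle at -1.16 and that of 29 other replication genes at -0.54. That of 23 other nucleotide genes crosses at -0.12 and that of all tested genes at -0.01. Apart from all tested genes, the lists were drawn up with earlier results of these data known.

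Promoter sequence was not part of how the genes were listed, although the list itself was drawn up with earlier results of these data known. RefSeq's table of promoter windows (GRCh38.p14, 250 bases before to 50 after each gene's start) held 41 of the 47 genes; MCM4, MCM5, GINS4, RPA2, RPA3 and CCNE2 had no entry. The windows were searched on both strands for E2F-type octamers (TTTCCCGC, TTTGGCGC, TTTCGCGC or TTTGCCGC), the letters that E2F factors are known to bind. At least 1 window held an octamer for 20 of the 39 tested genes with an entry (51.3%), against 590 of 9001 tested genes with an entry (6.55%) and 3.31% of all windows of this length. The nearest octamer lay between -114 and 8 from the start, with a median of -22.5, and 19 of the 20 lay within 100 bases of it. The octamer and up to 8 bases on either side are printed here for those 20 genes, which were picked for holding it. The other 19 of the 39 genes held none. Sequences run 5′ to 3′ on the gene's strand, and capitals mark the octamers, some overlapping and some read from the opposite strand.
MCM2 (chr3:127598405-127598428, plus strand): gaaccactTTTCGCGCGAAAcctg
MCM3 (chr6:52284731-52284754, minus strand): tcggaagtTTTCGCGCcggggtgg
MCM6 (chr2:135876514-135876537, minus strand): caggTTTGGCGCGAAAtctccagc
MCM7 (chr7:100101391-100101414, minus strand): gggcgacgTTTCGCGCcaatttcg
GINS1 (chr20:25407670-25407693, plus strand): tttgttcgGCGCCAAAgcgcggag
GINS2 (chr16:85688970-85688993, minus strand): tcgccgtgGCGGGAAAacggcggc
GINS3 (chr16:58392458-58392481, plus strand): ccccgggcGCGGGAAAcgagtttc
CDC6 (chr17:40287878-40287901, plus strand): cattcggaTTTGGCGCgagcgcgg
GMNN (chr6:24775325-24775348, plus strand): gggtcggtTTTGGCGCgctctcac
POLA2 (chr11:65261901-65261924, plus strand): gctcccggTTTCGCGCatgcgtgc
POLE (chr12:132687345-132687368, minus strand): gtgggagcGCGCCAAAtttctccc
POLE2 (chr14:49688204-49688227, minus strand): cggcggtgGCGCCAAAtcgcaaat
PCNA (chr20:5126666-5126689, minus strand): cgtcagggGCGGGAAAaggcgtgc
RFC3 (chr13:33818086-33818109, plus strand): tggagctcGCGGGAAAacttgtct
LIG1 (chr19:48170443-48170466, minus strand): tcacccctTTTCCCGCcctcctcc
TIPIN (chr15:66356732-66356755, minus strand): cggaTTTGGCGCCAAAcgctgcgg
CLSPN (chr1:35769968-35769991, minus strand): ctggctggGCGGGAAAgcaagaac
DTL (chr1:212035732-212035755, plus strand): gacgtcagTTTGGCGCggagtttg
TYMS (chr18:657606-657629, plus strand): ggacggccGCGGGAAAaggcgcgc
DUT (chr15:48332162-48332185, plus strand): atttcggtTTTGGCGCgctccctg

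In MCM2, MCM6 and TIPIN, octamers on opposite strands overlap, so the capitals run on beyond 8 letters. TTTGGCGC was the nearest octamer in 8 of these genes, TTTCCCGC in 7 and TTTCGCGC in 5. CCAAT, the letters that NF-Y binds, stood in at least 1 window of 25 of the 39 tested genes (64.1%) against 44.02% of tested genes. TTTGAA, the letters of the cell cycle homology element of many mitotic genes, stood in 2 of the 39 (5.13%) against 14.4%. Among 24 other replication genes with an entry, 7 held an E2F-type octamer (29.2%), and among 19 other nucleotide genes 2 did (10.5%). A shorter core that lacks the first T of each octamer, chosen after values were seen, was found for 32 of the 39 genes (82.1%) against 24.3% of tested genes. The median GC content of the windows was 65.7% for the 39 genes and 64.3% for all tested genes. As a description, the median log2 difference was -1.11 for the 20 genes with it and -1.19 for the 19 without.

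Whole windows are printed for the gene with the smallest p in each of 6 roles, to show where these letters fall around the start. Capitals mark the 7-letter core and CCAAT. Each window has 300 bases, and the gene's start follows base 250.
GINS3 (chr16:58392221-58392520, plus strand): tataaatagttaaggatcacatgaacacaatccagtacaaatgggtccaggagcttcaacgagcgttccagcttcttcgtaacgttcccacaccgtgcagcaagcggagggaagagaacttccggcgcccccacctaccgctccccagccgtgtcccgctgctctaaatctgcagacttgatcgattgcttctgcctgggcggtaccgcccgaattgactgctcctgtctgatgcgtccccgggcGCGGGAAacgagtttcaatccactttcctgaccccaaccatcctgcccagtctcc
ORC1 (chr1:52404374-52404673, minus strand): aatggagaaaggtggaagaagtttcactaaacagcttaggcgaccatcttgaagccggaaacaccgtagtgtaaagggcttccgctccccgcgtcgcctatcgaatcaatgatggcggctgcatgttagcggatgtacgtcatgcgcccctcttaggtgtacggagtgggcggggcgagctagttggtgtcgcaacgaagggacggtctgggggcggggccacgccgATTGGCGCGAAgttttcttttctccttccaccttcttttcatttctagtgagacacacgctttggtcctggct
FEN1 (chr11:61792661-61792960, plus strand): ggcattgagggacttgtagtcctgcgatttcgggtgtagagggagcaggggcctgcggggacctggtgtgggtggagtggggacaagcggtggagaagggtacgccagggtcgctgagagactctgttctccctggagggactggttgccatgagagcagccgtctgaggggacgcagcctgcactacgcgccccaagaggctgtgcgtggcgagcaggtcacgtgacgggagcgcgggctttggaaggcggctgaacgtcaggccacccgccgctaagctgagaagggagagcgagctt
TIMELESS (chr12:56449377-56449676, minus strand): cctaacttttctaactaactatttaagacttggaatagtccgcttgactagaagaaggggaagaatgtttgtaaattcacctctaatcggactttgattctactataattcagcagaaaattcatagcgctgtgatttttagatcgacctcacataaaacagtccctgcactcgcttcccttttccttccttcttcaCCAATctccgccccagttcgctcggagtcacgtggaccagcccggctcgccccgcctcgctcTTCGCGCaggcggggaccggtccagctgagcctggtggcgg
CHAF1B (chr21:36385142-36385441, plus strand): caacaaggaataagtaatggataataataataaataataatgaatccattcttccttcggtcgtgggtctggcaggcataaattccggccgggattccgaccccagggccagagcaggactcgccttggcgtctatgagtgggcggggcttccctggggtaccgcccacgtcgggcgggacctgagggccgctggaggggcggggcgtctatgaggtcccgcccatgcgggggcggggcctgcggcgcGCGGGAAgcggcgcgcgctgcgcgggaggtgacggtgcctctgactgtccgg
TK1 (chr17:78187155-78187454, minus strand): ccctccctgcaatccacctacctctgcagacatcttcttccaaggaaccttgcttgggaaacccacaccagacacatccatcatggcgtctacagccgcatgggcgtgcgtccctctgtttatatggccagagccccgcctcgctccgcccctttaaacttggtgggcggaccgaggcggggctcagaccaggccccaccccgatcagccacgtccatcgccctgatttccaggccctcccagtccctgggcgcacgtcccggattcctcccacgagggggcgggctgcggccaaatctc

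GINS3 has a core on the opposite strand that begins at -5, and CHAF1B one at -2. In ORC1, cores on both strands and a CCAAT on the opposite strand overlap, beginning between -23 and -19. TIMELESS has a CCAAT at -53 and a core at 10. The FEN1 window and the TK1 window shown hold none of these letters. TK1 has 2 windows in the table, and the core and a CCAAT stand in the other.

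The replicative helicase is the MCM2 to MCM7 ring with CDC45 and the GINS1 to GINS4 complex, and MCM10 is needed to set it in motion. Of these 12 genes 11 fell, with a median log2 difference of -1.32. All 6 ring subunits fell, between -1.56 for MCM2 and -0.99 for MCM3. MCM2 had 9.80, 9.20, 8.49 and 9.68 in the 24 h arrays, against 10.94, 10.60, 10.68 and 11.17 in the 0 h arrays. Every 24 h array lay below every 0 h array, and replicate 3 was the lowest at 24 h. The MCM2 difference was -1.56 ± 0.27 (SE, n = 4 arrays a group, as for every SE below), or 34.0% of the 0 h signal, with a limma adjusted p of 0.00473.

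MCM7, another ring subunit, had 12.70, 12.51, 12.04 and 12.66 in the 24 h arrays, against 13.62, 13.61, 13.88 and 14.07 in the 0 h arrays. The groups did not overlap, and the difference was -1.32 ± 0.18 (adjusted p = 0.00127). MCM5 had 9.53, 9.41, 8.60 and 9.47 in the 24 h arrays, against 10.74, 10.50, 10.70 and 11.16 in the 0 h arrays. Replicate 3 at 24 h stood 0.81 below the next array of its group, and the difference was -1.52 ± 0.22 (adjusted p = 0.00208). MCM3, MCM4 and MCM6 differed by -0.99 ± 0.17, -1.32 ± 0.25 and -1.13 ± 0.22, each with groups that did not overlap and adjusted p-values of 0.00439, 0.00705 and 0.00933.

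MCM10, CDC45 and GINS2, which act on the loaded ring, had the lowest estimates of the helicase genes. MCM10 had 9.73, 9.75, 7.94 and 9.32 in the 24 h arrays, against 11.56, 11.43, 10.48 and 11.53 in the 0 h arrays. The lowest array of both groups was replicate 3, and the difference of -2.07 ± 0.39, or 23.9% of the 0 h signal, was the largest fall in the list (adjusted p = 0.00815). CDC45 had 9.998, 9.76, 8.53 and 9.93 in the 24 h arrays, against 11.39, 11.32, 11.42 and 12.04 in the 0 h arrays. Its lowest 24 h array was replicate 3 and its highest 0 h array replicate 4, and the difference was -1.99 ± 0.31 (adjusted p = 0.00274).

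Of the 4 GINS genes, 3 fell. GINS2 had 10.92, 10.64, 9.14 and 10.85 in the 24 h arrays, against 12.27, 12.03, 12.24 and 12.86 in the 0 h arrays, a difference of -1.96 ± 0.36 (adjusted p = 0.00696). GINS3 had 9.80, 9.71, 9.69 and 9.75 in the 24 h arrays, against 10.69, 10.52, 10.68 and 10.92 in the 0 h arrays. The 24 h arrays of GINS3 spanned 0.10, and its difference of -0.97 ± 0.12 carried the smallest adjusted p of the list, 0.000971. GINS4 differed by -1.25 ± 0.18 (adjusted p = 0.00165). GINS1 had 5.72, 4.97, 5.23 and 5.26 in the 24 h arrays, against 5.23, 5.67, 5.47 and 5.94 in the 0 h arrays, with overlapping groups. The probe passed detection in 1 sample at 24 h and 3 samples at 0 h, so it lies near background, and its difference of -0.28 ± 0.20 had a 95% interval of -0.72 to 0.15 (adjusted p = 0.464).

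Of the origin loading factors, CDC6 and ORC1 act with CDT1 to place the ring, and GMNN encodes geminin, the inhibitor of CDT1. All 3 fell. CDC6 had 6.24, 5.73, 5.38 and 6.36 in the 24 h arrays, against 7.92, 7.51, 7.09 and 8.11 in the 0 h arrays. The groups were 0.74 apart, and the difference was -1.73 ± 0.27, or 30.2% of the 0 h signal (adjusted p = 0.00256). One 24 h array was below detection for CDC6, so its low end is close to background. ORC1, the largest subunit of the origin recognition complex, had 7.75, 7.48, 6.88 and 7.18 in the 24 h arrays, against 8.98, 8.68, 8.48 and 8.99 in the 0 h arrays. The difference was -1.46 ± 0.20 (adjusted p = 0.00149), with no overlap. GMNN had 10.16, 10.74, 9.81 and 10.03 in the 24 h arrays, against 10.68, 10.94, 10.91 and 11.17 in the 0 h arrays. Replicate 2 at 24 h lay above replicate 1 at 0 h, so the groups overlapped, and the difference of -0.74 ± 0.20 passed the threshold with an adjusted p of 0.0431. Leaving out any of 6 arrays ended that call, all but replicate 2 at 24 h and replicate 1 at 0 h, with adjusted p-values between 0.0855 and 0.123.

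All 5 listed polymerase genes fell, with a median of -1.19. PRIM1, the catalytic subunit of primase, had 10.24, 10.43, 9.78 and 10.16 in the 24 h arrays, against 11.05, 11.30, 11.40 and 11.61 in the 0 h arrays. The lowest 0 h array was 0.62 above the highest 24 h array, and the difference was -1.19 ± 0.17 (adjusted p = 0.00192). POLE2, the second subunit of polymerase epsilon, had 9.45, 9.61, 8.30 and 9.32 in the 24 h arrays, against 10.60, 10.63, 10.46 and 11.17 in the 0 h arrays, and fell furthest of the 5 at -1.54 ± 0.28 (adjusted p = 0.00579). POLA2 of the polymerase alpha complex differed by -1.30 ± 0.21. POLE and POLD1, which encode the catalytic subunits of polymerases epsilon and delta, differed by -1.03 ± 0.16 and -0.89 ± 0.19. None of these 5 genes had overlapping groups.

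PCNA is the sliding clamp, and RFC2 to RFC5 are small subunits of the loader that opens it. The 4 loader genes fell and PCNA did not pass the test. PCNA had 12.60, 13.19, 12.17 and 12.33 in the 24 h arrays, against 13.18, 13.45, 13.20 and 13.22 in the 0 h arrays. Replicate 2 at 24 h was about level with the lowest 0 h array, so the groups overlapped by 0.017. The difference was -0.69 ± 0.21, with a 95% interval of -1.15 to -0.23 and an adjusted p of 0.0657. With replicate number as a block the PCNA adjusted p was 0.0215, which passes, and 42 of the 44 genes were then called lower, against 8.98% of all tested genes. The PCNA call also depends on the probe: its other tested probes differed by -1.01 (adjusted p = 0.0279) and -0.13 (adjusted p = 0.642). RFC3 had 9.66, 9.65, 8.17 and 8.996 in the 24 h arrays, against 10.68, 10.64, 10.23 and 10.78 in the 0 h arrays, the largest fall of the loader at -1.47 ± 0.30 (adjusted p = 0.0121). RFC2, RFC4 and RFC5 differed by -1.20 ± 0.25, -1.02 ± 0.17 and -1.13 ± 0.22.

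The lagging strand is finished by FEN1, which trims flaps of Okazaki fragments, by LIG1, which seals them, and by RNase H2, whose catalytic subunit is RNASEH2A. RPA1, RPA2 and RPA3 form the trimer that coats single-stranded DNA. All 6 fell, with a median of -0.69. FEN1 had 11.44, 11.05, 10.22 and 11.23 in the 24 h arrays, against 12.62, 12.26, 12.04 and 12.96 in the 0 h arrays, a difference of -1.49 ± 0.28 (adjusted p = 0.00697). LIG1 and RNASEH2A differed by -1.19 ± 0.23 and -0.86 ± 0.18. The RPA subunits had the smallest differences of all called genes, at -0.51 ± 0.12, -0.50 ± 0.14 and -0.52 ± 0.15, with adjusted p-values of 0.0214, 0.0493 and 0.0490.

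RPA1 had 12.46, 12.40, 12.19 and 12.23 in the 24 h arrays, against 12.81, 12.78, 12.87 and 12.87 in the 0 h arrays, so the groups lay apart although the change was small. RPA2 passed only with all 8 arrays, and leaving out any 1 of them ended its call (adjusted p between 0.0550 and 0.145). RPA3 lost its call without any array other than replicate 1 at 0 h (0.0590 to 0.134). RPA1 lost its call without replicate 3 or 4 at 24 h or replicate 3 at 0 h (0.0505 to 0.0752).

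TIMELESS and TIPIN form the complex that steadies a stalled fork, CLSPN encodes claspin, the adaptor of checkpoint kinase CHK1, and DTL is the substrate receptor of the ubiquitin ligase that removes CDT1 in S phase. Of the 4, 3 fell. TIMELESS had 10.80, 10.58, 10.21 and 10.79 in the 24 h arrays, against 11.47, 11.48, 11.81 and 12.10 in the 0 h arrays, a difference of -1.12 ± 0.19 (adjusted p = 0.00414). TIPIN differed by nearly the same amount, -1.10 ± 0.21. DTL had 8.23, 8.44, 6.32 and 7.39 in the 24 h arrays, against 9.88, 9.98, 8.83 and 9.53 in the 0 h arrays. Its arrays spread widely within each group, and the difference of -1.96 ± 0.43 had an adjusted p of 0.0163. CLSPN had 5.37, 6.12, 5.32 and 5.14 in the 24 h arrays, against 5.23, 6.14, 6.18 and 6.74 in the 0 h arrays, with overlapping groups. Detection was again reached in 1 sample at 24 h and 3 samples at 0 h, and its difference of -0.58 ± 0.31 (95% interval -1.27 to 0.10, adjusted p = 0.309) missed the threshold. It was -1.23 on slide 2 and 0.06 on slide 1.

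CHAF1A and CHAF1B are the large subunits of chromatin assembly factor 1, which deposits histones H3 and H4 behind the fork, and NASP is a chaperone of H3 and H4. All 3 fell. CHAF1A had 6.44, 5.07, 5.59 and 6.52 in the 24 h arrays, against 7.77, 7.71, 7.71 and 8.31 in the 0 h arrays. It passed detection in 3 of the 24 h samples, and its difference of -1.97 ± 0.31, or 25.6% of the 0 h signal, had an adjusted p of 0.00273. CHAF1B had 8.20, 8.20, 7.38 and 7.96 in the 24 h arrays, against 9.08, 9.44, 9.67 and 10.08 in the 0 h arrays, a difference of -1.63 ± 0.24 (adjusted p = 0.00209). NASP differed by -1.04 ± 0.23 (adjusted p = 0.0187). Its 24 h arrays were close together and the spread lay in the 0 h arrays. NASP lost its call without replicate 2 or 3 at 24 h or replicate 3 at 0 h (adjusted p between 0.0515 and 0.0554).

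All 5 enzymes of nucleotide supply fell, with a median of -1.03. RRM1 and RRM2 are the subunits of ribonucleotide reductase, which turns ribonucleotides into deoxyribonucleotides. RRM1 had 12.94, 12.95, 12.38 and 12.74 in the 24 h arrays, against 13.28, 13.56, 13.65 and 13.69 in the 0 h arrays, a difference of -0.79 ± 0.16 (adjusted p = 0.0117). RRM2 had 8.97, 8.97, 7.24 and 8.99 in the 24 h arrays, against 9.88, 9.94, 9.93 and 11.01 in the 0 h arrays. In RRM2, 3 arrays of each group were within 0.053 of each other and 1 stood apart, replicate 3 at 24 h and replicate 4 at 0 h. Its difference was -1.64 ± 0.41 (adjusted p = 0.0287), and leaving out replicate 3 or replicate 4 at 0 h ended the call (0.0521 to 0.0658).

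TYMS, thymidylate synthase, had 11.47, 12.01, 11.17 and 11.58 in the 24 h arrays, against 12.02, 12.59, 12.71 and 13.03 in the 0 h arrays. The difference was -1.03 ± 0.23 (adjusted p = 0.0192), and the call was lost without replicate 1 or 3 at 24 h or replicate 3 at 0 h (0.0530 to 0.0609). TK1, the cytosolic thymidine kinase of S phase cells, had 11.21, 10.94, 10.25 and 11.13 in the 24 h arrays, against 12.31, 11.88, 12.48 and 12.63 in the 0 h arrays. Its groups lay well apart, and the difference was -1.44 ± 0.23 (adjusted p = 0.00338). DUT, the dUTPase that keeps uracil out of DNA, differed by -0.76 ± 0.15 on its brightest probe (adjusted p = 0.00902). A dimmer DUT probe pointed the other way, at 0.21 (adjusted p = 0.516).

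Cyclin E activates CDK2 at the entry to S phase. CCNE1 had 10.38, 10.20, 9.86 and 10.36 in the 24 h arrays, against 11.15, 10.93, 10.67 and 10.98 in the 0 h arrays, a difference of -0.73 ± 0.16 (adjusted p = 0.0156), with no overlap. A second CCNE1 probe was too dim to test. CCNE2 had means of 4.61 at 24 h and 4.67 at 0 h, both below detection, and allows no statement on its change.

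Dimmer probes gave a second reading for 7 genes. Among the 6 of these that were called lower on their brightest probe, 5 were also called lower on all dimmer tested probes, and DUT was the exception. The second MCM4 probe differed by -1.58, the MCM7 probes by -1.81 and -0.81, the MCM10 probe by -2.32, and those of RFC2 and RFC4 by -0.79 and -0.91. Across the 44 genes, the signed log2 difference had little relation to the mean log2 level (Pearson r = 0.16, Spearman rho = 0.26). A positive value here means a smaller fall at a higher level. Both are given as a description, over genes that share the same arrays.

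**Figure D3:**
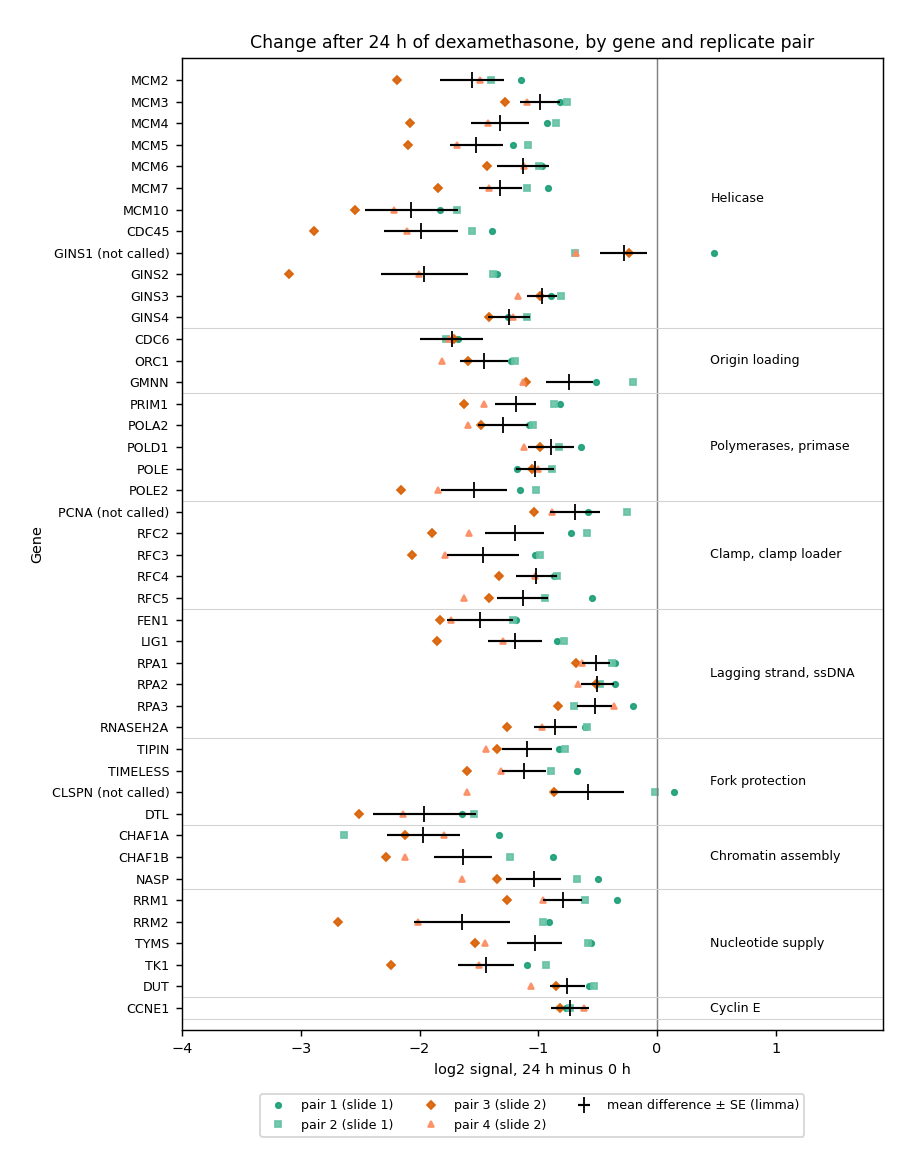
Points give the log2 difference (24 h minus 0 h) of each gene in each of the 4 replicate pairs, coloured by slide, and the black marks give the limma difference with its SE. Genes run down the page by role. Pair 3 lies furthest left in 29 of the 44 genes, and the 3 genes not called are named as such.

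The median fall was present in each replicate pair, with lower medians on slide 2. Of the 44 genes 42 were lower at 24 h in all 4 pairs, against 21.7% of all tested genes. The median of the 44 log2 differences was -0.87 in pair 1, -0.88 in pair 2, -1.51 in pair 3 and -1.45 in pair 4, while the median over all tested genes was close to 0 in each pair, -0.02 at the lowest. On slide 2 the fall was larger than on slide 1 in 41 of the 44 genes, against 48.3% of all tested genes. In 37 of the 44 both pairs of slide 2 lay below both pairs of slide 1 (23.8% of all tested genes).

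Replicate 3 at 24 h was the lowest of its group in 40 of the 44 genes (24.7% of all tested genes). Replicate 4 at 0 h was the highest of its group in 34 of the 44 (28% of all tested genes). Whether these arrays account for the lower medians on slide 2 was not tested. The test of the difference between slides called 0 of the 44 genes and 0 of all 10964 tested genes (limma interaction, adjusted p under 0.05). With 2 arrays per time on each slide, it cannot show that the slides were alike. In 8 of the 44 the unadjusted p was under 0.05, against 7.72% of all tested genes. CHAF1B, at -2.21 on slide 2 and -1.06 on slide 1, and NASP, at -1.497 and -0.58, had the smallest such p-values, 0.010 and 0.0073. CDC6, POLE, CHAF1A and CCNE1 differed between the slides by less than 0.05. Within slide 2 alone 11 of the 44 genes were called lower (1.71% of all tested genes) and within slide 1 alone 21 (2.33%), with 2 arrays a group in each. Without both arrays of pair 3, 29 of the 44 were called lower (2.79%).

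**Figure D4:**
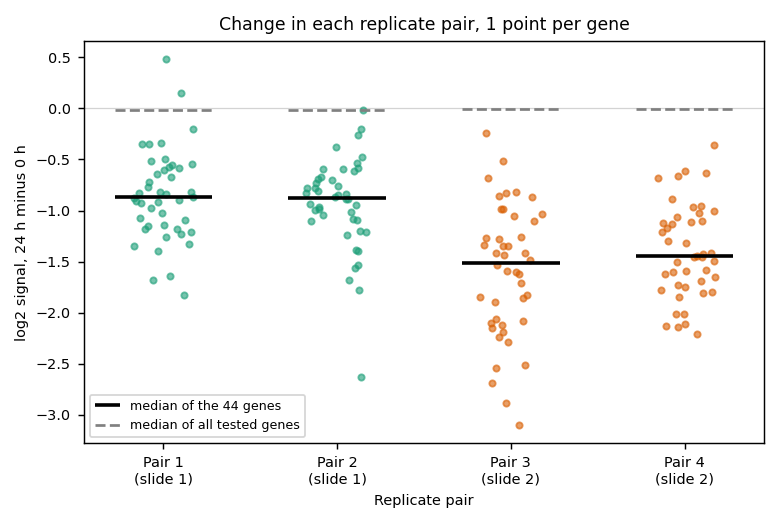
Each point is the log2 difference (24 h minus 0 h) of 1 of the 44 genes in a replicate pair, with pairs 1 and 2 on slide 1 and pairs 3 and 4 on slide 2. Black bars are the medians of the 44 genes, at -0.87, -0.88, -1.51 and -1.45, and dashed grey bars the medians of all tested genes, close to 0.

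Other genes of the same machinery had medians closer to 0. All these lists were drawn up with earlier results of these data known, so the contrast between them is a description. The part that the split into lists plays was not tested. Of 33 other replication genes 29 were tested, of which 12 were lower and 0 higher (limma), with a median of -0.54, against 5.34% of all tested genes lower. At an unadjusted p under 0.05, 17 were lower and 0 higher, against 11.9% and 11% of all tested genes. TICRR, which brings CDC45 to the ring, had 7.50, 7.74, 6.64 and 7.47 in the 24 h arrays, against 8.86, 8.61, 8.99 and 9.04 in the 0 h arrays, a difference of -1.53 ± 0.22 (adjusted p = 0.00194). ASF1B, a histone chaperone that works with chromatin assembly factor 1, differed by -1.62 ± 0.26. MCM8, TOPBP1, CHTF18 and TOP2A also fell, with differences of -1.07 ± 0.18, -0.82 ± 0.14, -1.14 ± 0.21 and -1.04 ± 0.19. The other genes called lower were POLE3, RECQL4, RFC1, POLA1, WDHD1 and ORC3. Leaving out 1 array ended the call of RFC1 (replicate 1 or 4 at 24 h, replicate 2 at 0 h), POLA1 (replicate 1, 2 or 3 at 24 h, replicate 3 or 4 at 0 h), WDHD1 (any but replicate 3 at 0 h) and ORC3 (any but replicate 2 at 24 h), with adjusted p-values between 0.0576 and 0.127.

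Of 30 other genes of nucleotide synthesis 23 were tested, with a median of -0.12. Of these, 0 were lower and 1 was higher (limma, adjusted p under 0.05), against 5.34% of all tested genes lower and 4.72% higher. At an unadjusted p under 0.05, 4 were lower and 2 higher, against 11.9% and 11% of all tested genes. SHMT1, the cytosolic serine hydroxymethyltransferase, had 12.31, 12.28, 12.64 and 12.51 in the 24 h arrays, against 11.65, 11.85, 11.86 and 11.93 in the 0 h arrays, and rose, with a difference of 0.61 ± 0.13 (adjusted p = 0.0153). That call was lost without replicate 3 or replicate 4 at 24 h (adjusted p = 0.0530 and 0.0523), with median scaling (0.0613) and without both arrays of pair 3 (0.0919). PFAS, an enzyme of purine synthesis, differed by -0.50 ± 0.17 (adjusted p = 0.107), which passes with replicate number as a block (adjusted p = 0.0236). TK2, the mitochondrial thymidine kinase, differed by 0.40 ± 0.14 (adjusted p = 0.102). PAICS and PPAT of purine synthesis and MTHFD1 of folate metabolism differed by -0.35 ± 0.13, -0.40 ± 0.16 and -0.36 ± 0.14, and did not pass.

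The listed genes can be set beside partner subunits and isoenzymes read from the same arrays. The 17 pairs shown were chosen after values were seen, so the differences between the 2 changes are given as a description, with no test. Each pair rests on 1 probe a gene, and the part that unequal probe response plays was not tested.

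In the origin recognition complex, ORC2 had 11.12, 10.90, 11.25 and 11.25 in the 24 h arrays, against 11.19, 11.23, 11.31 and 11.25 in the 0 h arrays, with overlapping groups, beside the ORC1 values above. On the log2 scale the change of ORC1 minus that of ORC2 was -1.34 ± 0.29, minus that of ORC3 -0.93 ± 0.20, minus that of ORC4 -1.57 ± 0.19 and minus that of ORC5 -1.20 ± 0.21 (SE, n = 4 arrays a group). ORC1 is the subunit whose amount is known to vary over the human cell cycle.

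TK2 had 8.30, 8.40, 8.67 and 8.69 in the 24 h arrays, against 8.24, 7.97, 8.12 and 8.12 in the 0 h arrays. The change of TK1 minus that of TK2 was -1.84 ± 0.32. RRM2B, the alternative small subunit of the reductase induced by p53, differed by -0.29 ± 0.21 between the groups (adjusted p = 0.487), and the change of RRM2 minus that of RRM2B was -1.35 ± 0.53.

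In polymerase delta, the change of POLD1 minus that of the small subunit POLD4 was -1.11 ± 0.32, and minus that of POLD3 -0.28 ± 0.40. The POLD3 probe passed detection in 1 sample at 24 h and 3 samples at 0 h, so it lies near background. In polymerase epsilon, the change of POLE minus those of POLE3 and POLE4 was -0.41 ± 0.09 and -0.74 ± 0.19. The change of POLA2 minus that of POLA1 was -0.50 ± 0.23.

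In the clamp loader, the changes of RFC2, RFC3, RFC4 and RFC5 minus that of the large subunit RFC1 were -0.71 ± 0.33, -0.97 ± 0.40, -0.52 ± 0.21 and -0.64 ± 0.26. RFC1 itself differed by -0.49 ± 0.11 between the groups. The change of RNASEH2A minus those of RNASEH2B and RNASEH2C was -0.62 ± 0.32 and -0.91 ± 0.30.

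**Figure D5:**
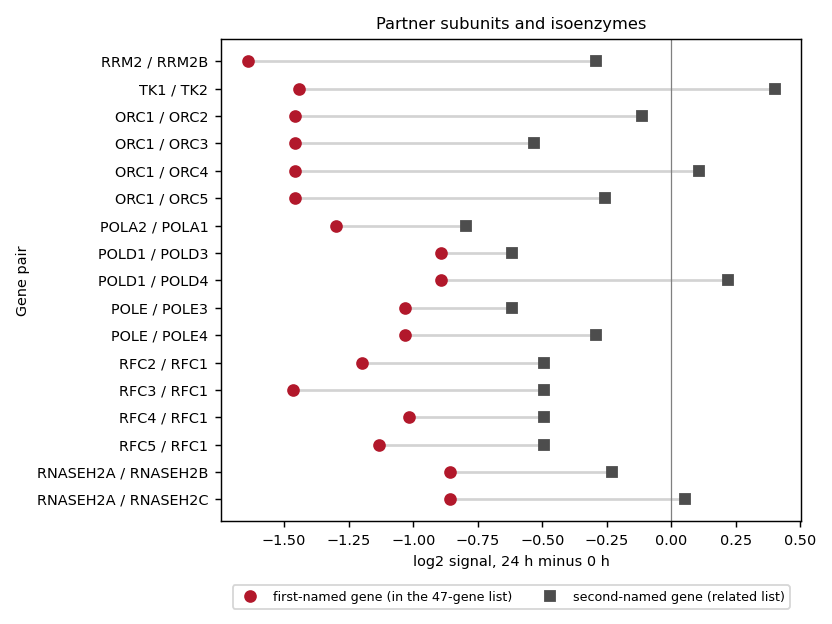
For each of 17 gene pairs the red circle is the log2 difference (24 h minus 0 h) of the listed gene and the grey square that of its partner subunit or isoenzyme. Red circles lie left of the grey squares in all 17 pairs, which were chosen after values were seen.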

How the data were processed

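Total RNA of A549 cells was labelled with biotin and hybridised to Illumina bead arrays, 4 at 24 h and 4 at 0 h. The authors deposited unprocessed probe intensities with a detection p-value for each of 25204 rows, and a table of log2 values for 22011 probes, made with limma per the submitters' processing notes (array medians 6.95 to 6.97). The scanner software is not stated in these sources.

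From the intensities, background was corrected by limma's normexp with the detection p-values (offset 16), the 22011 probes were quantile normalized, and probes with detection p under 0.05 on at least 4 of 8 arrays were tested: 14533 probes, 10964 genes by the brightest tested probe. Differences were tested with lmFit and eBayes (limma 3.58.1, R 4.3.3), Benjamini-Hochberg adjusted over all tested probes, threshold 0.05. The result correlated with the authors' log2 values at r = 0.998 on each array. Symbols came from the platform annotation (19759 probes with 1 symbol, 2252 with none), 19741 of them kept or updated through Entrez IDs. The number of arrays limits the precision.

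The labels number replicates 1 to 4 in both groups. Deviations from the group means correlated at 0.372 to 0.466 between arrays of the same number and -0.540 to 0.176 otherwise, so the numbers were taken to pair the samples. The main test has no block, as the submitters' notes name none, so it uses neither this pairing nor the slide. With replicate number as a block, 42 of the 44 genes were called lower, against 8.98% of all tested genes.

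The members and the lists of other genes were chosen with earlier results of these data known. All 47 members are named or counted, with the 6 genes of smallest p in each other list and any gene whose value is needed. Promoters printed are those of the smallest p in each of 6 roles, among genes with an entry. Alternatives were other background corrections and normalizations, the authors' values, other detection filters, replicate and slide blocks, single slides and leaving out arrays.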

Additional observations from a re-analysis of the deposited data

Results flagged for a closer look

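Among the 88 groups of 4 arrays formed by the 44 tested genes, 10 held an array that stood apart from the other 3 by more than Dixon's critical value at the 95% level. Chance flags about 1 group in 20, and genes on the same arrays are not independent. Replicate 3 at 24 h was the lowest array, and apart from its group, for MCM4 (log2 signal 10.26), MCM5 (8.60), CDC45 (8.53), GINS2 (9.14) and RRM2 (7.24). Replicate 4 at 0 h was the highest, and apart from its group, for CDC45 (12.04), CHAF1A (8.31) and RRM2 (11.01). In MCM10, replicate 3 at 0 h was low at 10.48, and in PCNA, replicate 2 at 0 h was high at 13.45. Without both arrays of pair 3, 29 of the 44 genes were called lower, against 41 with all arrays. The share of all tested genes called lower was 2.79% without that pair and 5.34% with all arrays. The fit without pair 3 also has fewer arrays, and the part that this plays was not tested.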

How the results depend on the processing

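The count of 41 genes called lower, with 0 called higher, was 42 without background correction, 42 with an offset of 50, 39 with median scaling, 41 with the authors' values, 38 of 45 without a detection filter, 39 of 40 with detection on all 8 arrays, and 42 with the replicate block, the slide block or a trended robust fit. Of all tested genes 3.57% to 8.98% were called lower in these fits. Leaving out 1 array gave 34 to 40 (all tested genes 3.7% to 4.92%), and 34 of the 41 genes kept their call in every such fit. GMNN, RPA2 and RPA3 lost theirs with median scaling, and GMNN, RPA3 and RRM2 without the filter. Slide 1 alone gave 21 and slide 2 alone 11, each with 4 arrays, and 29 remained without pair 3. Of 920 estimates over all fits 919 were below 0, the exception being CLSPN on slide 1 (0.064). The dimmer DUT probe stood at 0.21. Other replication genes called lower numbered 2 on slide 1, 5 on slide 2, 6 without pair 3, 15 with the replicate block and 8 to 12 with 1 array left out. Among other nucleotide genes, 1 was called lower with the replicate block, the slide block or the trended robust fit (0 to 1 with 1 array left out). Of the same list 0 were called higher with median scaling, on slide 1, on slide 2 and without pair 3 (0 to 1 with 1 array left out). All genes called lower and higher numbered 985 and 876 with the replicate block, 255 and 239 on slide 1, 187 and 215 on slide 2, 306 and 290 without pair 3, and 406 to 539 and 354 to 490 with 1 array left out, against 585 and 518. The cause of these changes was not tested. Fits that leave arrays out also have fewer arrays, and the part that this plays was not tested either. Probes near background, GINS1 and CLSPN above all, limit what signal over background can show.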
